A study of Mus musculus with 16 samples.

Results

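Endothelial genes were followed in whole mouse lung across genotype and allergen exposure. The set held 10 genes given by name, Pecam1, Cdh5, Kdr, Flt1, Tek, Car4, Ednrb, Tmem100, Vwf and Selp. A gene was read from the probe set annotated to its symbol alone. For 9 of the 10, exactly 1 such probe set was present among the 35556 of the table, and these 9 are described here out of 19938 genes measured. Selp, the P-selectin gene, had no probe set named for it in the annotation used here and was not analysed.

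The 16 arrays fell into 4 groups of 4. The KO HDM and KO saline groups were Vldlr knockout mice, which lack the very low density lipoprotein receptor, given house dust mite extract (HDM) or saline. The WT HDM and WT saline groups were wild-type mice of the B6129SF2/J strain, given HDM or saline likewise. The strain of the knockouts, the disrupted part of the gene, and the age and sex of the animals are not given in the labels. In every comparison of KO with WT, loss of the receptor therefore cannot be told apart from a difference of strain background. HDM is an inhaled allergen used to produce experimental asthma in mice, and 25 µg in 10 µl, or saline in the same volume, went into the nose on 5 days a week for 6 weeks. Total lung RNA was hybridised to Affymetrix whole-transcript arrays, and all levels are on the log2 scale. The labels call the arrays of a group biological replicates but do not say how many animals gave each RNA, and a p-value here covers only the spread among these arrays. Vldlr itself lay between 9.40 and 9.91 on the KO HDM arrays and 9.77 and 9.90 on the KO saline arrays, against 10.27 to 10.92 on the WT HDM arrays and 10.50 to 10.75 on the WT saline arrays, so that no KO array reached a WT array.

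The endothelium lines every vessel of the lung. Its cells are held together by junction proteins such as Pecam1 and Cdh5 and depend on the VEGF receptors Kdr and Flt1 and the angiopoietin receptor Tek. Most of it is alveolar capillary, where one kind of cell, the aerocyte, is rich in Car4, Ednrb and Kdr, while the capillary's other cells, arteries and veins carry other markers. Vwf marks larger vessels more than alveolar capillaries, and is kept with Selp in secretory granules called Weibel-Palade bodies. Platelets and megakaryocytes hold Vwf and Selp too. Each of the 9 lay above the array median of 8.78 to 8.85 on all 16 arrays.

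RefSeq promoter sequence (GRCm38.p6) was at hand for 6 of the 10 genes, Kdr, Flt1, Tek, Car4, Ednrb and Selp. The 4 promoters below are those of genes that fell in at least 1 comparison, as the 250 bases before the annotated start, with matches to the ETS core GGAAG, on either strand, in capitals. ETS factors are general regulators of endothelial genes.
Kdr, chr5:75978456-75978705, minus strand: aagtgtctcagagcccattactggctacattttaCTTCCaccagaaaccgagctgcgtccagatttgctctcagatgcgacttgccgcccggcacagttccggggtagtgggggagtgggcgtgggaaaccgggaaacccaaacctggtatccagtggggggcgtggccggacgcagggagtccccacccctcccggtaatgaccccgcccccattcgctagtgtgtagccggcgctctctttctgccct
Flt1, chr5:147726012-147726261, minus strand: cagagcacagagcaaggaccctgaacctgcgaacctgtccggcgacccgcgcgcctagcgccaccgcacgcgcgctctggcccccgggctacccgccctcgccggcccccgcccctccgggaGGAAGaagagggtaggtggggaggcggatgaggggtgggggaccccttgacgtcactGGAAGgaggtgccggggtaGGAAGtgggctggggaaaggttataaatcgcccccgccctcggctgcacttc
Tek, chr4:94739039-94739288, plus strand: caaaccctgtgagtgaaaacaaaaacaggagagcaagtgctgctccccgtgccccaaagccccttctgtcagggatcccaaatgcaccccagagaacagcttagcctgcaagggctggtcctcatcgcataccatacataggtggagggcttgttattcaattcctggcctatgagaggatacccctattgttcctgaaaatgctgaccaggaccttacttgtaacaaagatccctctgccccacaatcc
Ednrb, chr14:103843702-103843951, minus strand: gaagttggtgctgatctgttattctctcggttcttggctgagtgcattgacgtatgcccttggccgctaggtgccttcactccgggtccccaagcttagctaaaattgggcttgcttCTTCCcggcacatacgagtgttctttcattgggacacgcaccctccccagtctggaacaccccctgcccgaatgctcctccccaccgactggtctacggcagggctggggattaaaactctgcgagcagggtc
The core stood once in the Kdr and Ednrb windows and 3 times in that of Flt1, and it was not found in the Tek window. It stood in 5 of the 6 windows at hand, beside 64.1% of 32851 mouse promoters of the same length. The GATA motifs AGATAA and TGATAA, present in 16.6% of all promoters, and the SMAD element GGCGCC, present in 9.6%, were in 0 of the 6. No match thus overlapped another motif. CpG dinucleotides numbered 16 in the Kdr window, 23 in that of Flt1, 11 in that of Ednrb and 2 in that of Tek, against a median of 6 over all promoters.

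Whether HDM changed vessel genes in lungs without the receptor was asked first. In KO mice Vwf rose while Tmem100, Ednrb and Flt1 fell, and the other 5 genes did not pass the test. That made 4 of 9 genes called, 1 higher and 3 lower, beside 8.84% of all 19938 genes, 4.96% higher and 3.88% lower, at an adjusted p under 0.05 in limma's moderated test (Benjamini-Hochberg over all genes). The median change of the 9 was -0.18, against -0.03 over all genes. In whole lung, fewer cells of a type and less RNA per cell cannot be told apart.

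Tmem100, a small membrane protein of capillary and arterial endothelium that BMP signalling through ALK1 turns on, showed the largest fall of the set. It stood at 12.17, 12.12, 11.87 and 12.44 on KO HDM arrays 1 to 4, against 12.76, 12.84, 12.81 and 12.84 on KO saline arrays 1 to 4. Every KO HDM array lay below every KO saline array. Over all genes the groups failed to overlap for 14%, with HDM higher in 6.71% and lower in 7.33%. The change was -0.66 (SE 0.11, n = 4 per group, limma adjusted p = 0.00144), or 0.63-fold. Ednrb, the endothelin B receptor, which clears endothelin from the blood in the lung, followed the same pattern. Its levels were 10.90, 10.91, 10.74 and 11.23 on the KO HDM arrays, against 11.37, 11.44, 11.39 and 11.48 on the KO saline arrays. The change of -0.47 (SE 0.09, adjusted p = 0.00249) again left the groups apart. Car4, a carbonic anhydrase on the capillary surface and the third capillary gene, was at 12.83, 13.05, 13.18 and 13.23 under HDM, against 13.19, 13.25, 13.18 and 13.15 under saline. Its groups overlapped and the change of -0.12 (SE 0.08, adjusted p = 0.402) did not pass.

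Among the receptors, Flt1, a high-affinity VEGF receptor that limits signalling through Kdr, was lower by 0.36 (log2 change -0.36, SE 0.11, adjusted p = 0.0429), with 11.25, 11.26, 11.28 and 11.56 on the KO HDM arrays, against 11.74, 11.80, 11.54 and 11.73 on the KO saline arrays. The highest KO HDM array, number 4, was just above the lowest KO saline array. Kdr, the main signalling receptor for VEGF, was at 10.38, 10.74, 10.64 and 11.05 on the KO HDM arrays, against 10.91, 10.99, 10.89 and 11.14 on the KO saline arrays. Its change of -0.28 (SE 0.10, adjusted p = 0.106) did not pass, and KO HDM 4 alone reached the saline range. Tek was at 12.02, 12.18, 12.03 and 12.71 under HDM, against 12.36, 12.43, 12.22 and 12.44 under saline, so that KO HDM 4 lay above every KO saline array while the other 3 lay below all of them. The change was -0.13 (SE 0.11, adjusted p = 0.525).

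Neither junction gene passed. Pecam1, the adhesion molecule CD31, which leukocytes and platelets also carry, was at 12.32, 12.37, 12.41 and 12.63 under HDM, against 12.46, 12.55, 12.53 and 12.55 under saline (-0.09, SE 0.06, adjusted p = 0.407). Cdh5, the endothelial cadherin, was at 12.77, 12.73, 12.84 and 13.18 under HDM, against 13.05, 13.07, 13.03 and 13.09 under saline (-0.18, SE 0.08, adjusted p = 0.19). In both genes 3 KO HDM arrays lay below the saline range and KO HDM 4 above it.

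Vwf, the adhesive glycoprotein that captures platelets at injured vessels, moved the other way. It stood at 11.30, 11.56, 11.63 and 11.71 on KO HDM arrays 1 to 4, against 11.07, 11.00, 11.08 and 11.14 on the KO saline arrays. All HDM arrays were above all saline arrays, for a change of 0.48 (SE 0.09, n = 4 per group, limma adjusted p = 0.0021), or 1.39-fold.

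**Figure D1:**
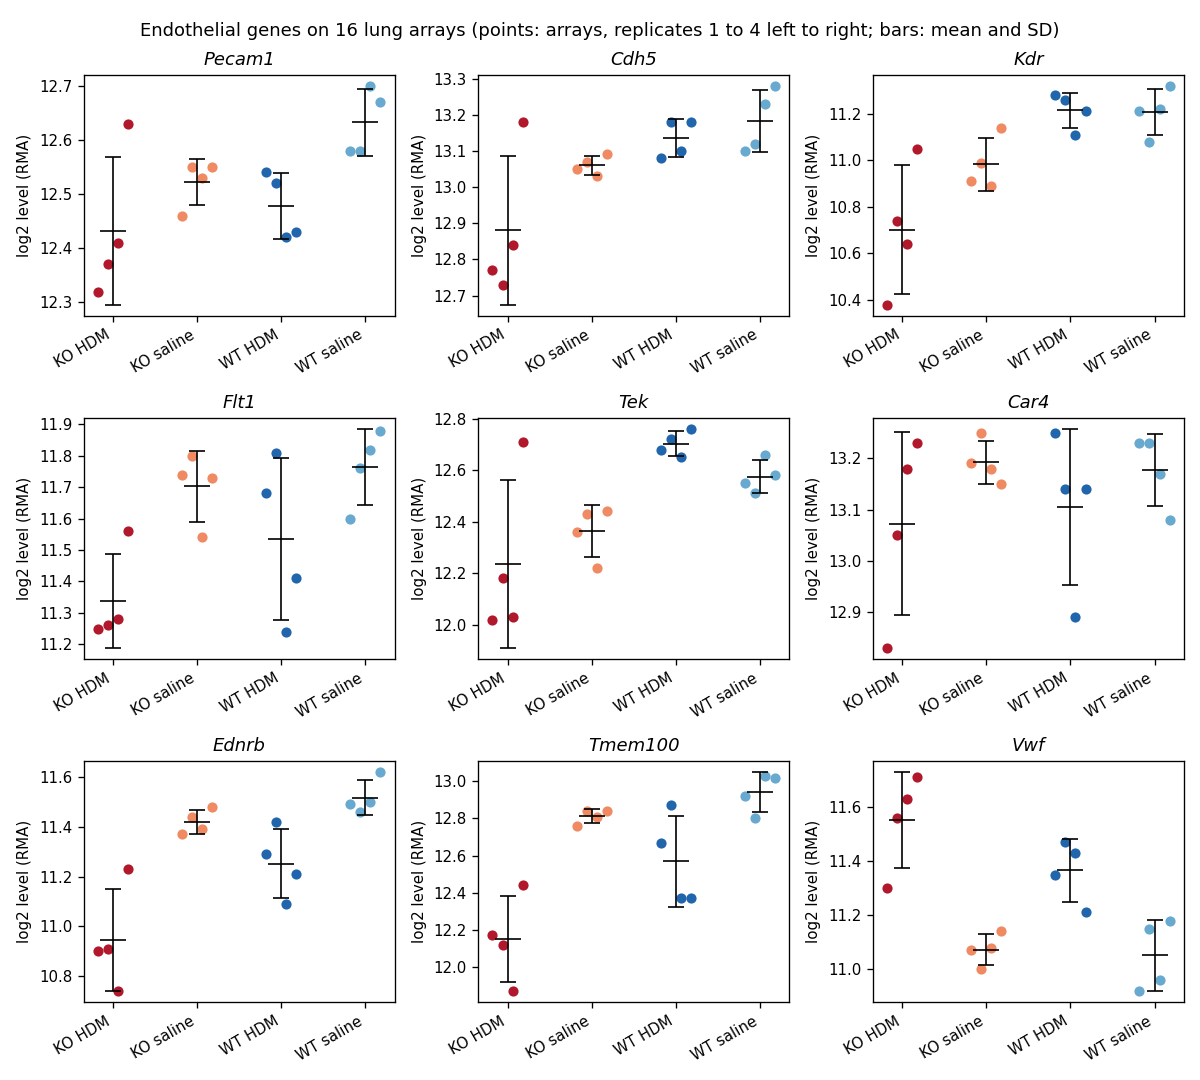
Log2 level of each of the 9 measured genes (y axes, RMA values, each with its own range) on the 16 arrays by group (x axes), with points for arrays and bars for mean and SD. Vwf is highest in KO HDM lungs (11.30 to 11.71) and Tmem100 lowest there (11.87 to 12.44), and the uppermost KO HDM point in each panel is array 4.

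KO HDM 4 stood apart within its group. It was the highest of the 4 KO HDM arrays in 9 of 9 genes, Vwf included, while KO HDM 1 was the lowest in 6. Nor was this confined to endothelial genes. KO HDM 4 was lowest in the leukocyte gene Itgam (9.63, against 10.09 to 10.62). It was highest in the epithelial genes Scgb1a1 (13.01, against 11.82 to 12.24) and Hopx (11.79, against 11.47 to 11.52). In the smooth muscle gene Acta2 (13.07, against 12.73 to 13.10) it was not apart. Without it 2673 of all genes passed in KO lungs, against 1763. Without KO HDM 4, 7 genes passed in KO mice, with Cdh5 at -0.28 (SE 0.06, limma adjusted p = 0.00403), Kdr at -0.39 (SE 0.09, adjusted p = 0.00587) and Tek at -0.29 (SE 0.07, adjusted p = 0.0082) added to the 4 above. Vwf was then 0.42 (adjusted p = 0.00422), Tmem100 -0.76 (adjusted p = 0.00023), Ednrb -0.57 (adjusted p = 0.00012) and Flt1 -0.44 (adjusted p = 0.0131). The labels give no reason to set this array aside, and the values with all 16 arrays remain the main ones. The Flt1 call was lost without any 1 of KO HDM 1, 2 and 3, KO saline 1, 2 and 4 and WT saline 2 and 3, with changes between -0.44 and -0.33 over left-out arrays.

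**Figure D2:**
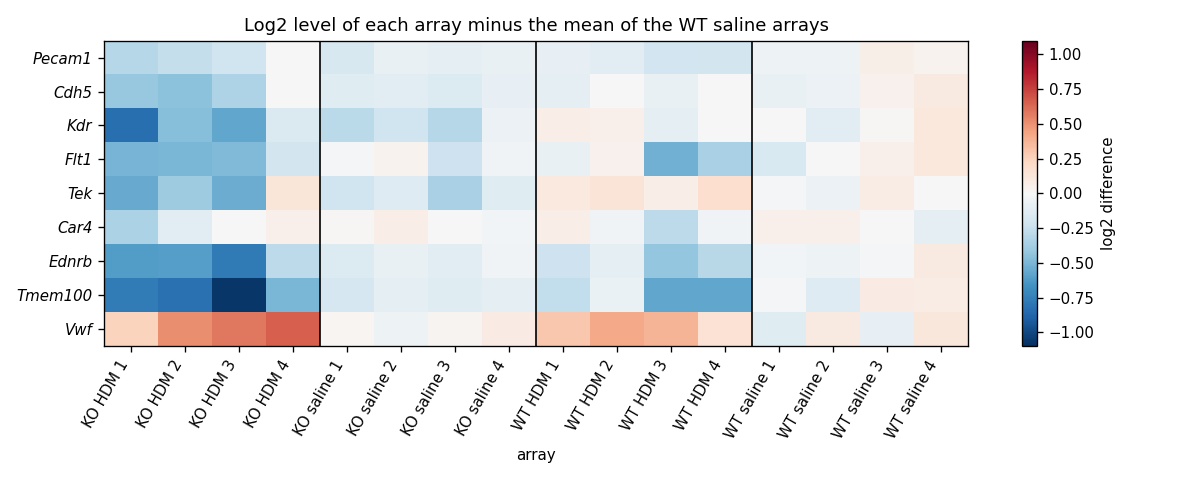
Level of each gene (rows) on each array (columns) minus the mean of the 4 WT saline arrays, as a log2 difference in colour, with blue lower and red higher. Vwf is red on all 8 HDM arrays, Tmem100 and Ednrb are blue on all of them, though only faintly on WT HDM 2, and Kdr, Tek and Cdh5 are bluest on KO HDM 1 to 3.

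The same comparison in WT mice asked what HDM did to vessel genes with the receptor present. Vwf again rose, and Tmem100 and Ednrb fell, by values smaller than those in KO mice. These 3 of 9 genes, 1 higher and 2 lower, stand beside 17.6% of all genes called in WT lungs, 7.86% higher and 9.72% lower, and the median change of the 9 was -0.07, against -0.05 over all genes. Vwf was at 11.35, 11.47, 11.43 and 11.21 on WT HDM arrays 1 to 4, against 10.92, 11.15, 10.96 and 11.18 on the WT saline arrays. All HDM arrays were above all saline arrays, narrowly between WT HDM 4 and WT saline 4. The change was 0.31 (SE 0.09, n = 4 per group, limma adjusted p = 0.0218), or 1.24-fold. Lack of overlap was found in 23.5% of all genes here, with HDM higher in 9.13% and lower in 14.4%.

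Tmem100 was at 12.67, 12.87, 12.37 and 12.37 on the WT HDM arrays, against 12.92, 12.80, 13.03 and 13.02 on the WT saline arrays, with WT HDM 2 inside the saline range. It changed by -0.37 (SE 0.11, adjusted p = 0.0342). Ednrb was at 11.29, 11.42, 11.09 and 11.21 under HDM, against 11.49, 11.46, 11.50 and 11.62 under saline, with no overlap, and changed by -0.26 (SE 0.09, adjusted p = 0.046). These 3 calls depended on single arrays. With WT saline 2 and 3 both left out, 0 of the 9 genes passed by limma and 3 had an unadjusted p under 0.05, with changes close to those above for Vwf (0.31, SE 0.11, adjusted p = 0.102), Tmem100 (-0.40, SE 0.14, adjusted p = 0.116) and Ednrb (-0.30, SE 0.11, adjusted p = 0.129). The limma count was also 0 without WT saline 1, with 5 genes at an unadjusted p under 0.05, and without WT saline 3, with 3, and it was 1, Vwf alone, without each of WT saline 4, WT HDM 3 and WT HDM 4. Without WT HDM 2 the Vwf call was lost and those of Tmem100 and Ednrb held. The Ednrb call was lost in 15 of 25 alternatives, with changes between -0.32 and -0.21 over left-out arrays.

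The receptors and junction genes did not pass in WT lungs. Kdr was at 11.28, 11.26, 11.11 and 11.21 under HDM, against 11.21, 11.08, 11.22 and 11.32 under saline (0.01, SE 0.10, adjusted p = 0.956). Tek was at 12.68, 12.72, 12.65 and 12.76 under HDM, against 12.55, 12.51, 12.66 and 12.58 under saline (0.13, SE 0.11, adjusted p = 0.41). Flt1 spread widely under HDM, at 11.68, 11.81, 11.24 and 11.41, against 11.60, 11.76, 11.82 and 11.88 under saline (-0.23, SE 0.11, adjusted p = 0.134). Pecam1 was at 12.54, 12.52, 12.42 and 12.43 under HDM, against 12.58, 12.58, 12.70 and 12.67 under saline. Its groups did not overlap, yet the change of -0.16 (SE 0.06, adjusted p = 0.0894) did not pass. Cdh5 (-0.04, SE 0.08, adjusted p = 0.715) and Car4 (-0.07, SE 0.08, adjusted p = 0.534) had overlapping groups.

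Knockout and wild type were then compared under HDM, which asked whether vessel genes differed between them in challenged lungs. This comparison uses the KO HDM and WT HDM arrays again, so its values are not independent of those above. The genes called here were partly others. Kdr, Tek, Tmem100, Ednrb and Cdh5 were lower in KO lungs, 5 of 9 genes, beside 11.7% of all genes called, 5.84% higher and 5.83% lower. The median of the 9 was -0.26, against 0.02 over all genes. Kdr differed by -0.52 (SE 0.10, n = 4 per group, limma adjusted p = 0.00557), or 0.70-fold, with every KO HDM array (10.38 to 11.05) below every WT HDM array (11.11 to 11.28). Lack of overlap occurred in 10.8% of all genes, with KO higher in 5.74% and lower in 5.06%. Tek, the receptor for the vessel-stabilising angiopoietins, differed by -0.47 (SE 0.11, adjusted p = 0.0133), and its KO HDM arrays 1 to 3 (12.02 to 12.18) lay below all WT HDM arrays (12.65 to 12.76), with KO HDM 4 (12.71) among them. Tmem100 differed by -0.42 (SE 0.11, adjusted p = 0.0228), Ednrb by -0.31 (SE 0.09, adjusted p = 0.0303) and Cdh5 by -0.26 (SE 0.08, adjusted p = 0.0427), each with overlapping groups. Flt1 (-0.20, SE 0.11, adjusted p = 0.265), Pecam1 (-0.05, SE 0.06, adjusted p = 0.691), Car4 (-0.03, SE 0.08, adjusted p = 0.839) and Vwf (0.19, SE 0.09, adjusted p = 0.173) did not pass.

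Without KO HDM 4 the same 5 genes passed, and the differences were -0.63 for Kdr (adjusted p = 0.000203), -0.625 for Tek (adjusted p = 3.94e-05), -0.52 for Tmem100 (adjusted p = 0.00311), -0.40 for Ednrb (adjusted p = 0.00139) and -0.36 for Cdh5 (adjusted p = 0.000554). When only these 2 groups were fitted, 0 of the 9 genes passed by limma, while 5 had an unadjusted p under 0.05. The adjusted p was then 0.0516 for Kdr, 0.083 for Tek, 0.112 for Tmem100, 0.13 for Ednrb and 0.15 for Cdh5. The main fit pools the spread of all 4 groups, which was unequal. For Tek the SD was 0.32 in KO HDM and 0.05 in WT HDM lungs, against 0.10 in KO saline and 0.06 in WT saline lungs. The main p-values under HDM can therefore be too small. Leaving out other single arrays lowered the count to 1, Kdr alone, without each of KO HDM 1 and KO HDM 3, and to 2, Kdr and Tek, without each of KO HDM 2, WT HDM 1 and WT HDM 2. It was 3, with Tmem100 added, without WT HDM 4. The Cdh5 call was lost in 15 of 25 alternatives.

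In unchallenged lungs no gene of the set passed between genotypes. The limma count was 0 of 9, with 1 of 9, Kdr, at an unadjusted p under 0.05, beside 0.231% of all genes called, 0.0903% higher and 0.14% lower. Of the 9 differences, 7 were negative, with a median of -0.11 against -0.01 over all genes. The levels of Kdr were 10.91, 10.99, 10.89 and 11.14 on the KO saline arrays, against 11.21, 11.08, 11.22 and 11.32 on the WT saline arrays (-0.23, SE 0.10, adjusted p = 0.589). Pecam1, Cdh5 and Tek were lower on every KO saline array than on every WT saline array, 3 of 9 genes. Over all genes 6.54% did not overlap, with KO higher in 3.16% and lower in 3.38%. Their differences were -0.11 (SE 0.06, adjusted p = 0.759), -0.13 (SE 0.08, adjusted p = 0.81) and -0.21 (SE 0.11, adjusted p = 0.703). Vwf (0.02, SE 0.09, adjusted p = 0.992) and Car4 (0.02, SE 0.08, adjusted p = 0.994) had values near 0 with overlapping groups.

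Whether the HDM change itself differed between genotypes was tested as an interaction, the HDM change in KO minus that in WT. No gene of the set passed. The limma count was 0 of 9, with 0 of 9 at an unadjusted p under 0.05, beside 0.802% of all genes called, 0.356% higher and 0.446% lower. The largest values were -0.29 for Tmem100 (SE 0.16, adjusted p = 0.388), -0.29 for Kdr (SE 0.14, adjusted p = 0.355), -0.26 for Tek (SE 0.16, adjusted p = 0.443) and -0.21 for Ednrb (SE 0.12, adjusted p = 0.425), and Vwf was at 0.17 (SE 0.12, adjusted p = 0.54). The larger changes in KO than in WT lungs were therefore not shown to differ. Without KO HDM 4, Tek passed, at -0.41 (SE 0.09, adjusted p = 0.0164), and Kdr was at -0.40 (SE 0.12, adjusted p = 0.0553).

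**Figure D3:**
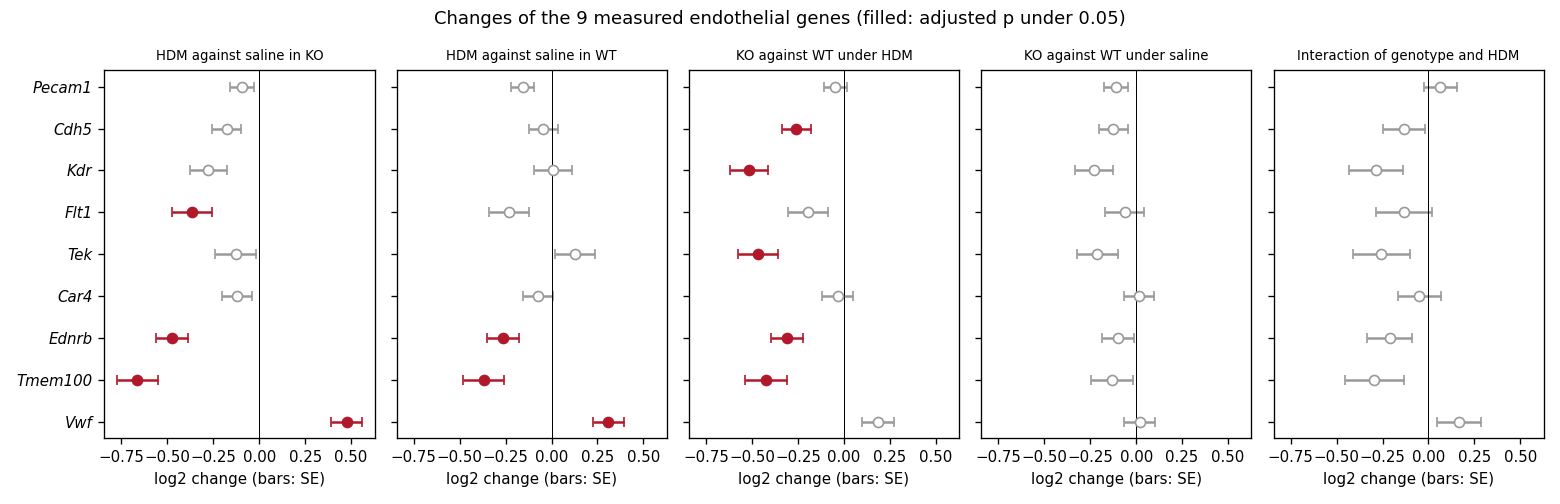
Log2 change of each gene (x axes, bars for SE) in the 4 comparisons and the interaction (panels), with filled symbols at an adjusted p under 0.05. Vwf is the only filled symbol right of 0, in both HDM comparisons, and the 5 filled symbols between genotypes under HDM are Cdh5, Kdr, Tek, Ednrb and Tmem100.

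Ordered by group mean, Tmem100, Ednrb and Flt1 ran from lowest to highest as KO HDM, WT HDM, KO saline and WT saline, with means ± SD (n = 4) for Tmem100 of 12.15 ± 0.24, 12.57 ± 0.25, 12.81 ± 0.04 and 12.94 ± 0.11. In these 3 genes the saline groups, neighbours in that order, overlapped and did not pass a test between them. Kdr ran as KO HDM (10.70 ± 0.27), KO saline (10.98 ± 0.11), WT saline (11.21 ± 0.10) and WT HDM (11.22 ± 0.08), and Tek in the same order with 12.24 ± 0.32, 12.36 ± 0.10, 12.57 ± 0.06 and 12.70 ± 0.05. For Kdr and Tek no neighbours in this order differed by a test that passed with all arrays. Cdh5 ran as KO HDM (12.88 ± 0.21), KO saline (13.06 ± 0.03), WT HDM (13.14 ± 0.06) and WT saline (13.18 ± 0.09), and Pecam1 as KO HDM (12.43 ± 0.14), WT HDM (12.48 ± 0.06), KO saline (12.52 ± 0.04) and WT saline (12.63 ± 0.06). Car4 was lowest in KO HDM (13.07 ± 0.17) and highest in KO saline lungs (13.20 ± 0.04), with both WT groups between them and no difference that passed. Vwf alone had its highest mean in KO HDM lungs (11.55 ± 0.18), then WT HDM (11.36 ± 0.12), with the saline groups (11.07 ± 0.06 in KO and 11.05 ± 0.13 in WT) overlapping.

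Vwf was then set against the capillary genes on each array, as its log2 level minus the mean of Kdr, Car4, Ednrb and Tmem100. Its size has no meaning across probe sets, and only its movement between groups was read. The difference was -0.28, -0.14, 0.02 and -0.27 in KO HDM lungs 1 to 4, and -0.98, -1.13, -0.99 and -1.01 in KO saline lungs 1 to 4. The WT HDM arrays had -0.78, -0.71, -0.43 and -0.78, and the WT saline arrays -1.29, -0.99, -1.27 and -1.08. Both HDM groups lay above both saline groups, and KO HDM above WT HDM, with no shared values, while the saline groups overlapped.

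HDM moved the difference by 0.86 in KO lungs (-0.17 ± 0.14 under HDM and -1.03 ± 0.07 under saline, SD, n = 4 each) and by 0.48 in WT lungs (-0.67 ± 0.16 under HDM and -1.16 ± 0.15 under saline). Vwf itself moved by 0.48 in KO and 0.31 in WT lungs, and the mean of the 4 capillary genes by -0.38 and -0.17. Of these 4, Tmem100 and Ednrb passed in both genotypes, and Kdr and Car4 passed in neither. Under HDM, KO exceeded WT by 0.51 in the difference, and under saline by 0.13. The genes were chosen with their changes known, so these values are a description with no test. KO HDM 4, which stood apart in the single genes, was at -0.27 and within its group. When arrays were left out in turn, the KO movement stayed between 0.80 and 0.90 and the WT movement between 0.40 and 0.54. Measured against the mean of the 8 genes other than Vwf, which include the capillary genes, the movement was 0.76 in KO and 0.44 in WT lungs. Against the mean of the junction genes Pecam1 and Cdh5 alone it was 0.61 in KO and 0.41 in WT lungs. Much of the movement was thus also seen against genes that are not of the capillary set.

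**Figure D4:**
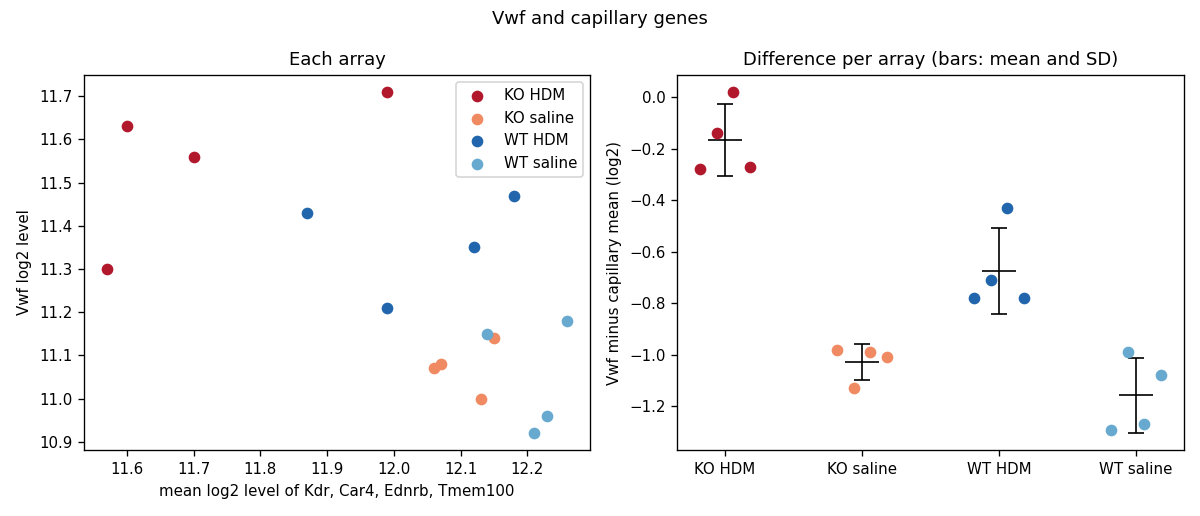
Left, log2 level of Vwf (y axis) against the mean log2 level of Kdr, Car4, Ednrb and Tmem100 (x axis), 1 point per array. Right, the first minus the second per array by group, with bars for mean and SD. KO HDM arrays (-0.28 to 0.02) lie above WT HDM arrays (-0.78 to -0.43), and both above the saline arrays.

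Across the 16 arrays the 8 genes other than Vwf moved together, with Pearson's r between 0.31 and 0.98 over their 28 pairs, highest for Ednrb with Tmem100. Vwf had r between -0.72 and -0.10 with each of the 8. Once each group's mean was taken out, all 36 pairs were positive, at 0.225 to 0.905 without Vwf and 0.20 to 0.56 with it. Pooled over the 4 groups, arrays above their group's mean in the other endothelial genes thus tended to be so in Vwf too. The opposite movement lay between groups. KO HDM 4, the highest of its group in 9 of 9 genes, enters each of these values, and r was not taken within single groups. The tendency did not hold for every gene in every group. Tek was at 12.68, 12.72, 12.65 and 12.76 on WT HDM arrays 1 to 4, where Vwf was at 11.35, 11.47, 11.43 and 11.21. These correlations are descriptions over 16 arrays that share 4 groups and, pair by pair, the same RNA and hybridisation.

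The genes most like Vwf over the 16 arrays were Mlst8 (r = 0.943), Fn1 (0.942), St3gal4 (0.918), Vps37c (0.905) and Slc4a2 (0.892). Fn1 encodes fibronectin, a matrix and plasma glycoprotein, and was at 13.19 ± 0.12 in KO HDM and 12.65 ± 0.07 in KO saline lungs, and at 13.03 ± 0.12 in WT HDM and 12.62 ± 0.13 in WT saline lungs (SD, n = 4 each). Those most like Kdr were Bmp6 (0.948), Pdzd2 (0.945), Tnfrsf19 (0.944), Hs3st1 (0.938) and Fgf18 (0.937). Bmp6, a secreted bone morphogenetic protein, had group means of 10.71 ± 0.33 in KO HDM, 11.21 ± 0.10 in KO saline, 11.35 ± 0.13 in WT HDM and 11.39 ± 0.17 in WT saline lungs.

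Further genes were read from lists of endothelial types and pathways. Of 25 other pan-endothelial genes, 3 fell and 1 rose in KO lungs under HDM (median -0.07), 4 fell and 1 rose in WT lungs (median -0.10) and 3 were lower in KO than in WT under HDM (median -0.10). Over all genes 8.84% were called in KO, 17.6% in WT and 11.7% between genotypes under HDM. Ramp2, the partner of the adrenomedullin receptor, fell by 0.46 in KO (adjusted p = 0.0219) and fell by 0.59 in WT lungs (adjusted p = 0.0044), and S1pr1, a receptor for sphingosine phosphate that seals junctions, fell by 0.30 in KO (adjusted p = 0.0282) and fell by 0.28 in WT lungs (adjusted p = 0.0278). Clec14a fell in KO lungs (-0.49, adjusted p = 0.0285), and the surface glycoproteins Icam2 (-0.41, adjusted p = 0.00395) and Emcn (-0.34, adjusted p = 0.00407) fell in WT lungs. Cd34 rose by 0.31 in KO lungs (adjusted p = 0.0144) and Robo4 by 0.37 in WT lungs (adjusted p = 0.046), a call lost in 15 of 25 alternatives. The transcription factor Sox7 (-0.52, adjusted p = 0.0137), the phosphatase Ptprb, which acts on Tek (-0.36, adjusted p = 0.0209), and Clec14a (-0.46, adjusted p = 0.0315) were lower in KO than in WT lungs under HDM. Each of these calls was lost when only the 2 groups were fitted.

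Of 17 measured capillary genes, 3 fell and 0 rose in KO lungs under HDM (median -0.14), and 3 were lower and 0 higher in KO than in WT lungs under HDM (median -0.20). In WT lungs 3 rose and 2 fell (median 0.00). These counts stand beside 8.84% of all genes called in KO, 11.7% between genotypes under HDM and 17.6% in WT. Sema3c fell by 0.49 in KO (adjusted p = 0.0113) and fell by 0.40 in WT lungs (adjusted p = 0.0246). Fibin (-0.50, adjusted p = 0.0423) and Cyp4b1 (-0.58, adjusted p = 0.00945), which airway epithelium also makes, fell in KO lungs, while Fabp4, a fatty acid carrier (0.62, adjusted p = 0.0154), Glp1r (0.37, adjusted p = 0.0294) and Kit (0.27, adjusted p = 0.0455) rose in WT lungs, where Hilpda, a lipid droplet protein, fell (-0.62, adjusted p = 0.00342). Kit (-0.39, adjusted p = 0.011), Cyp4b1 (-0.54, adjusted p = 0.0149) and Fibin (-0.51, adjusted p = 0.0343) were the 3 lower in KO than in WT under HDM. Kit, a growth factor receptor, is also made by mast cells.

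Of 17 artery and vein genes, 3 rose and 1 fell in KO lungs under HDM, and 1 rose and 2 fell in WT lungs, the WT count being near the share over all genes (8.84% called in KO and 17.6% in WT). Nrp2, a VEGF co-receptor of veins and lymphatics, rose by 0.41 (adjusted p = 0.00335), Cxcl12 by 0.33 (adjusted p = 0.0126) and Eln, the elastin gene, by 0.44 (adjusted p = 0.0104), while the arterial kinase Bmx fell by 0.29 (adjusted p = 0.0276). Which cells made Eln and Cxcl12 cannot be told in whole lung, where smooth muscle markers, given below, also rose. In WT lungs Nrp2 rose by 0.28 (adjusted p = 0.0237), and the arterial genes Hey1 (-0.39, adjusted p = 0.0261) and Gja4 (-0.23, adjusted p = 0.0284) fell. Between genotypes under HDM, 4 of the 17 were lower in KO, Bmx (-0.49, adjusted p = 0.00185), Nrp1 (-0.32, adjusted p = 0.0159), Dll4 (-0.45, adjusted p = 0.0247) and Nr2f2 (-0.33, adjusted p = 0.0453), and Eln was higher (0.83, adjusted p = 0.000252), beside 11.7% of all genes called. The Nr2f2 call was lost in 14 of 25 alternatives. Gja4, a gap junction protein of arteries, was the only listed gene that passed between genotypes under saline (-0.38, adjusted p = 0.0202).

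Of 9 measured genes listed for Weibel-Palade bodies and their release, 1 rose in KO lungs under HDM and 0 fell, near the 8.84% of all genes called. The 1 was Thbs1 (0.71, adjusted p = 0.000126), a platelet and matrix glycoprotein rather than a protein of these granules. In WT lungs 0 rose and 1 fell, beside 17.6% of all genes. This was Adamts13 (-0.20, adjusted p = 0.0244), the protease that cleaves von Willebrand factor, likewise not a part of the granules. Thbs1 (0.54, adjusted p = 0.00228) and Cd63, a membrane protein of these granules (0.50, adjusted p = 0.0321), were higher in KO than in WT lungs under HDM. In the list of activated endothelium, with 11 measured, Procr (0.29, adjusted p = 0.0366) and Selplg, the P-selectin ligand of leukocytes (0.40, adjusted p = 0.0381), rose in KO lungs and Lrg1 (0.77, adjusted p = 0.00117) in WT lungs. These 2 in KO and 1 in WT, with 0 fallen in each, stand beside 8.84% and 17.6% of all genes called. The WT count is below that share, and the list medians were -0.02 in KO and -0.07 in WT. Between genotypes under HDM, the leukocyte adhesion molecule Vcam1 was higher in KO (0.31, adjusted p = 0.0454) and Esm1, a tip cell gene, lower (-0.58, adjusted p = 0.0479), beside 11.7% of all genes called. The Vcam1 call was lost in 13 and the Esm1 call in 15 of 25 alternatives.

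Ligands of the receptors were read next. Of 11 VEGF and angiopoietin genes, Vegfa, the ligand of Kdr and Flt1, fell by 0.34 in KO lungs under HDM (adjusted p = 0.0109) and was lower by 0.30 in KO than in WT under HDM (log2 difference -0.30, adjusted p = 0.0201). Vegfa was at 12.01 ± 0.19 in KO HDM, 12.35 ± 0.08 in KO saline, 12.31 ± 0.10 in WT HDM and 12.42 ± 0.04 in WT saline lungs. Nrp2 and Nrp1, given above, are in this list too, and Angptl1 fell in WT lungs (-0.22, adjusted p = 0.0415), a call lost in 13 of 24 alternatives. Pgf, which binds Flt1 and not Kdr, was higher in KO than in WT lungs under HDM (0.40, adjusted p = 0.00492). On this list 1 gene rose and 1 fell under HDM in each genotype, beside 8.84% of all genes called in KO and 17.6% in WT. The WT count is near that share. Under HDM 1 was higher and 2 were lower in KO than in WT, beside 11.7% of all genes called. The endothelin pathway, with 5 genes measured beside Ednrb, had 0 calls by limma in each of the 5 comparisons, with at most 1 gene at an unadjusted p under 0.05. Edn1, the main endothelin, had an interaction of -0.64 (SE 0.25, adjusted p = 0.226). Of 15 genes listed for the BMP9 and ALK1 pathway, 1 fell and 0 rose in KO lungs, Bmp6 (-0.50, adjusted p = 0.0184). In WT lungs 1 rose and 0 fell, Bmp4 (0.83, adjusted p = 0.000763). Neither count exceeded the share over all genes, 8.84% in KO and 17.6% in WT. Bmp4 (-0.81, adjusted p = 0.00163), Bmp6 (-0.64, adjusted p = 0.00519) and the receptor Bmpr2 (-0.26, adjusted p = 0.0134) were lower in KO than in WT under HDM. These 3 lower and 0 higher stand beside 11.7% of all genes called.

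Markers of other cells were read on the same arrays. Platelet and megakaryocyte markers, 6 of 10 measured, had 0 genes that rose and 1 that fell under HDM in each genotype, beside 8.84% of all genes called in KO and 17.6% in WT, so that the WT count is near the share over all genes. Their mean level was between 9.21 and 9.44 on the KO HDM arrays and 9.48 and 9.79 on the KO saline arrays, without overlap. It lay between 9.15 and 9.67 on the WT HDM arrays and 9.68 and 9.89 on the WT saline arrays, apart only narrowly. Among single genes, 14% did not overlap in KO, 7.33% with HDM lower, and 23.5% in WT, 14.4% with HDM lower. Gp5 fell in KO lungs (-0.37, adjusted p = 0.0473) and Pf4 in WT lungs (-0.41, adjusted p = 0.0207), and Gp9 was lower in KO than in WT under HDM (-0.37, adjusted p = 0.0396). The Gp5 call was lost in 13 of 25 alternatives. Of the pericyte and smooth muscle markers, all 6 measured, 3 rose in KO and 2 in WT lungs. Rgs5 rose by 0.77 (adjusted p = 0.00215), Myh11 by 0.54 (adjusted p = 0.00226) and Acta2 by 0.43 (adjusted p = 0.00308) in KO lungs, and Rgs5 by 0.63 (adjusted p = 0.00698) and Myh11 by 0.35 (adjusted p = 0.0244) in WT lungs. Rgs5 was higher in KO than in WT under HDM (0.61, adjusted p = 0.0118). The mean of the 6 ran from 10.55 to 10.81 on the KO HDM arrays, 10.36 to 10.51 on the KO saline arrays, 10.51 to 10.65 on the WT HDM arrays and 10.36 to 10.55 on the WT saline arrays.

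Leukocyte markers, 4 of 5 measured, had means of 10.89 to 11.38 on KO HDM and 10.67 to 10.84 on KO saline arrays, and 10.65 to 11.23 on WT HDM and 10.52 to 10.72 on WT saline arrays. Of these, 1 passed in each genotype, Itgam, which rose by 0.90 in KO (adjusted p = 0.00106) and 0.69 in WT lungs (adjusted p = 0.00548). Over all genes 8.84% were called in KO and 17.6% in WT. The epithelial markers, 6 of 6 measured, ran from 11.54 to 11.91 in KO HDM and 11.89 to 11.94 in KO saline lungs, and from 11.91 to 12.06 in WT HDM and 11.69 to 11.93 in WT saline lungs. The alveolar type 1 gene Hopx fell in KO lungs (-0.38, adjusted p = 0.00998), and the club cell gene Scgb1a1 rose in WT lungs (0.68, adjusted p = 0.0472), a call lost in 16 of 25 alternatives. Both were lower in KO than in WT under HDM, Scgb1a1 at -0.94 (adjusted p = 0.0153) and Hopx at -0.28 (adjusted p = 0.0406, lost in 12 of 25 alternatives). Of 5 heart muscle markers, all measured, 3 were lower in KO than in WT under HDM, Myh6 (-0.77, adjusted p = 0.00552), Tnnt2 (-0.66, adjusted p = 0.0155) and Nppa (-0.46, adjusted p = 0.0362). Over all genes 11.7% were called in this comparison, 5.83% of them lower as a share of all genes. The mean of the 5 ran from 9.75 to 10.32 on KO HDM arrays, against 10.27 to 10.79 on WT HDM arrays. Under saline it ran from 10.05 to 10.44 on KO arrays, against 10.54 to 10.97 on WT arrays. On the lymphatic list, with 5 of 6 measured, Mmrn1, which platelets also make, rose in WT lungs (0.36, adjusted p = 0.0389) and was lower in KO than in WT under HDM (-0.39, adjusted p = 0.0358). The part of these cells in the changes of the endothelial genes was not tested.

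**Figure D5:**
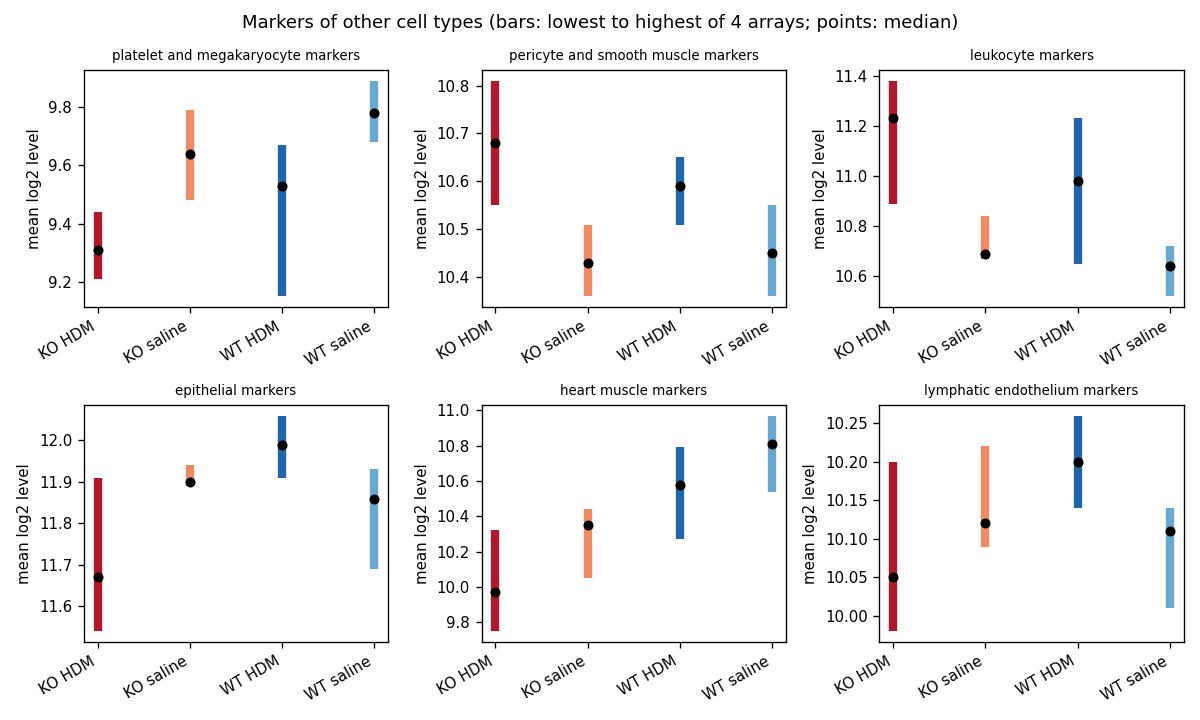
Mean log2 level of the measured markers of 6 other cell types (y axes) by group (x axes), with bars from the lowest to the highest of 4 arrays and points at the median. The mean over platelet markers runs from 9.21 to 9.44 in KO HDM and 9.48 to 9.79 in KO saline lungs, with 1 of 6 markers called, and that over leukocyte markers from 10.89 to 11.38 in KO HDM and 10.67 to 10.84 in KO saline lungs, with 1 of 4 called. Over all genes 8.84% were called in KO lungs.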

How the data were processed

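Total lung RNA, 16 samples in 4 groups of 4, was hybridised to 1 Affymetrix array each. The authors deposited log2 values, 1 per probe set and array. Per the submitters' processing notes, these came from RMA in Affymetrix Expression Console. Because RMA subtracts background, forces the arrays to 1 distribution and fits the probes of a set together, levels of different probe sets cannot be compared. For tool versions and genome build, the sources used here give none.

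The platform annotation gave 1 symbol for 21789 of 35556 probe sets, several for 1621 and none for 12146. By gene ID, 21698 matched the GRCm38.p6 RefSeq table. For the 999 genes with several probe sets the one with the highest mean was kept, leaving 19938 genes. Array medians ran from 8.78 to 8.85, and the number of arrays limits precision.

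Values were fitted with limma 3.58.1 in R 4.3.3, as 4 group means with 12 residual degrees of freedom, with two-sided tests and Benjamini-Hochberg adjustment over all genes per comparison at 0.05. The code was tested on simulated data. SE is limma's, SD the spread between arrays. The members and lists were chosen with earlier results of these data known. Named are all members, and per list and comparison the genes that passed, by smallest p and at most 6, filled to 2 (only Edn1 of those that did not pass is printed), plus the 5 genes most like Vwf and Kdr. Alternatives were another normalization or centring, a filter on dim genes, a variance trend, array weights, a fit of 2 groups, mean probe sets, a replicate block and left-out arrays. Same-numbered arrays of different groups had deviations that correlated between -0.28 and 0.33, and other pairs between -0.39 and 0.39. The numbers were not used as pairs in the main fit, but these ranges do not exclude a batch shared by number. Array 4 had the lowest median of its group in each of the 4 groups (8.78 to 8.80).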

Additional observations from a re-analysis of the deposited data

Results flagged for a closer look

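Of 40 sets of 4 arrays examined, 9 genes and the difference of Vwf and the capillary genes in 4 groups, 1 held an array far from the others by Dixon's test, and chance flags about 1 in 20. It was Flt1 on KO HDM 4, at 11.56, against 11.25, 11.26 and 11.28 on the other KO HDM arrays. In 4 genes of the companion lists the HDM change differed between KO and WT by the limma interaction test. The value was 0.69 for Eln (adjusted p = 0.0353), 0.68 for Thbs1 (adjusted p = 0.0232), -0.83 for Lrg1 (adjusted p = 0.0399) and -0.81 for Bmp4 (adjusted p = 0.0475). Group means were 11.75, 11.31, 10.91 and 11.16 for Eln and 12.46, 11.75, 11.92 and 11.89 for Thbs1 in KO HDM, KO saline, WT HDM and WT saline lungs. They were 10.99, 11.05, 11.21 and 10.44 for Lrg1, and 11.59, 11.57, 12.39 and 11.56 for Bmp4, in the same order of groups. Over 24 alternatives the call was lost in 10 for Eln, 6 for Thbs1, 14 for Lrg1 and 15 for Bmp4.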

How the results depend on the processing

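With 4 arrays a group, single arrays decide many calls. Vwf, Tmem100 and Ednrb in KO lungs kept direction and call in all 25 alternatives. Members called ranged over left-out arrays from 3 to 7 in KO lungs, 0 to 4 in WT lungs, 1 to 5 between genotypes under HDM, and 0 to 1 for the interaction. With array weights 5 passed in WT lungs, with WT saline 2 and 3 left out 0 did, and with only the 2 groups fitted 0 did between genotypes under HDM. Of the list genes called in that comparison, only Eln, Bmx, Thbs1, Bmp4, Bmp6, Myh6 and Nppa still passed with the 2 groups fitted. A fit of 2 groups takes its SE from the spread of those groups alone. For Tek between genotypes it was 0.133 under HDM and 0.062 under saline, against 0.11 in the main fit. The cause of the lost calls was not tested. The replicate block gave 4, 3, 5, 0 and 0 members called in the 5 comparisons, in the order reported, and changed no call of a member. Of list genes it ended the calls of Robo4 (adjusted p = 0.0588) and Angptl1 (0.0562) in WT lungs, and of Esm1 (0.0606) and Hopx (0.0513) between genotypes under HDM. It moved all genes called for the interaction to 258, against 160. Values near 0, none of them called, changed sign. Kdr under HDM in WT was -0.028 after quantile normalization, -0.048 without WT saline 2 and 3, and -0.033 to 0.046 over left-out arrays. Car4 between genotypes was -0.005 under saline after quantile normalization. Over left-out arrays it ran from -0.017 to 0.033 under saline, -0.105 to 0.045 under HDM and -0.12 to 0.03 for the interaction, where Pecam1 ran from -0.002 to 0.101. Vwf between genotypes under saline ran from -0.024 to 0.061. All genes called numbered 2938 against 1763 in KO lungs with array weights, and 390 against 2327 between genotypes under HDM with 2 groups. Under saline they were 110 with array weights and 98 with 2 groups, against 46, and for the interaction 680 with array weights. With WT saline 2 and 3 left out, 1057 were called in WT lungs, against 3505, 10 between genotypes under saline and 12 for the interaction. Over left-out arrays all genes called ran from 1034 to 2673 in KO, 1960 to 3799 in WT, 968 to 3831 between genotypes under HDM, 14 to 66 under saline and 41 to 1019 for the interaction. The fit of 2 groups was not run for the interaction.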
